A study of Caenorhabditis elegans with 4 samples.

Results

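The genes described are asp-1 to asp-6 of Caenorhabditis elegans, which encode aspartyl proteases. They were chosen by name: asp-1 (Y39B6A.20), asp-2 (T18H9.2), asp-3 (H22K11.1), asp-4 (R12H7.2), asp-5 (F21F8.3) and asp-6 (F21F8.7), 6 of the 17096 genes of the count table. Poly(A) RNA, read from its 3' end, was taken from whole N2 worms, the wild type of the laboratory, in 4 groups with 1 library each. OP50 day 4 and OP50 day 13 ate Escherichia coli OP50, the standard laboratory food, and PY79 day 4 and PY79 day 13 ate Bacillus subtilis PY79, in each case from the first larval stage to day 4 or day 13 of adulthood. The study used these libraries to set ageing on a diet that lengthens life beside ageing on the usual food. Each library was a pool of many worms, and nothing in it separates 1 tissue from another. The methods mention FUDR, which stops worms from producing progeny, for the study's comparison of young with old worms in general and not for these plates by name.

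Aspartyl proteases cut proteins with a pair of aspartate side chains and work best in acid. The family includes pepsin of the vertebrate stomach and cathepsin D of the lysosome, and its members are made as inactive precursors that are trimmed once they reach an acid compartment. In the worm the intestine is both the digestive organ and the main store of lysosome-related granules. asp-1 is known as an intestinal protease, and asp-3 and asp-4 are known for the execution of necrotic cell death in neurons, where they act downstream of calcium release and calpain proteases. The other members are named here as proteases of the family without a further role.

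All 6 genes were lower at day 13 than at day 4 on OP50, where 18.9% of all genes were lower. On PY79 5 of them were lower, against 7.97% of all genes, the exception being asp-6. Under other processing these counts went as low as 4 on OP50 and 3 on PY79. Between the foods the members went both ways. At day 4, 2 of 6 were higher and 2 of 6 lower, shares near those of all genes (25.4% and 24.3%). At day 13, 2 of 6 were higher and 3 of 6 lower, against 22.6% and 22.8% of all genes. asp-3 and asp-5 were lower on PY79 at both days, except when libraries were set equal on 6 reference genes. Scaled to total reads, asp-5 at day 13 was 1.65-fold lower and was not counted. asp-2 and asp-6 were higher on PY79 in the transcript rows with most reads. For asp-2 and asp-6 the direction or the call rested on which transcript row was read. With all rows of a gene summed, asp-2 was still counted as higher on PY79 at both days, and asp-6 at day 13 only. There are no replicates. A fold is therefore given with an exact 95% interval that covers counting error only, and higher or lower in a count of genes means at least 2-fold with an interval that leaves out 1. Levels are in CPM, reads per 1000000 reads of a library scaled by TMM, a method that sets the bulk of genes equal between libraries. A gene is said to have risen or fallen only where it had a Benjamini-Hochberg adjusted p under 0.05 in the quasi-likelihood test of edgeR, fitted to all 4 libraries with additive terms for food and age. The adjustment ran over the 9032 genes that reached 10 reads in 1 library or more. All 6 members passed that filter on low values.

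The libraries held 28650595 and 28552961 reads in the chosen transcripts on OP50, and 4838114 and 4469802 on PY79, at day 4 and day 13. A floor of 3 reads corresponds to between 0.114 and 0.556 CPM. The 6 genes together took 32865 reads (0.115% of the library) on OP50 at day 4 and 7637 (0.0267%) at day 13, against 4046 (0.0836%) and 1346 (0.0301%) on PY79. Of the markers listed for intestine, body wall muscle, pharynx, germline, epidermis and neurons, only 2 epidermal and 1 neuronal gene did not reach 10 reads in any library. In the annotation, asp-2 overlaps inx-10 and asp-4 overlaps R12H7.4, in both cases on the other strand, and these partners held at most 4 reads in any library.

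The table lists a count for each annotated transcript, and the rows of a gene can differ. The row with most reads over the 4 libraries was taken for each gene. For asp-1 the row with fewest reads held 99.9% and 99.5% of the reads of that chosen row on OP50, and 90.45% and 88.9% on PY79. For asp-5 the second row was at 99.5% and 99.05% on OP50 but at 50% and 63.3% on PY79. The rows of asp-1 were thus close in every library, and those of asp-5 on OP50. For asp-6 the chosen row held 1680, 497, 837 and 776 reads, with the libraries ordered OP50 day 4, OP50 day 13, PY79 day 4 and PY79 day 13. Its second row held 1529, 240, 66 and 79 reads, so that it was at 91.0% and 48.3% of the first on OP50 and at 7.89% and 10.2% on PY79. asp-2 showed the same gap on PY79, with 32, 6, 191 and 27 reads in the chosen row and 19, 5, 7 and 1 in the other. asp-3 and asp-4 had a single row. The gap was not particular to these genes: over 1263 genes with several rows and at least 30 reads in each library, the median gene's smallest row held 86.6% of its largest row on OP50 at day 4, 73.1% on OP50 at day 13, 49.0% on PY79 at day 4 and 53.9% on PY79 at day 13. The sources used here do not give how reads were assigned to rows, and its part in the diet differences of asp-2 and asp-6 was not tested. For folds and tests given below for the second, other or fewest-reads row, that row was taken in every gene and the TMM factors were recomputed. Such values differ in library scaling as well as in row, and those of asp-3 and asp-4 in scaling alone.

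**Figure D1:**
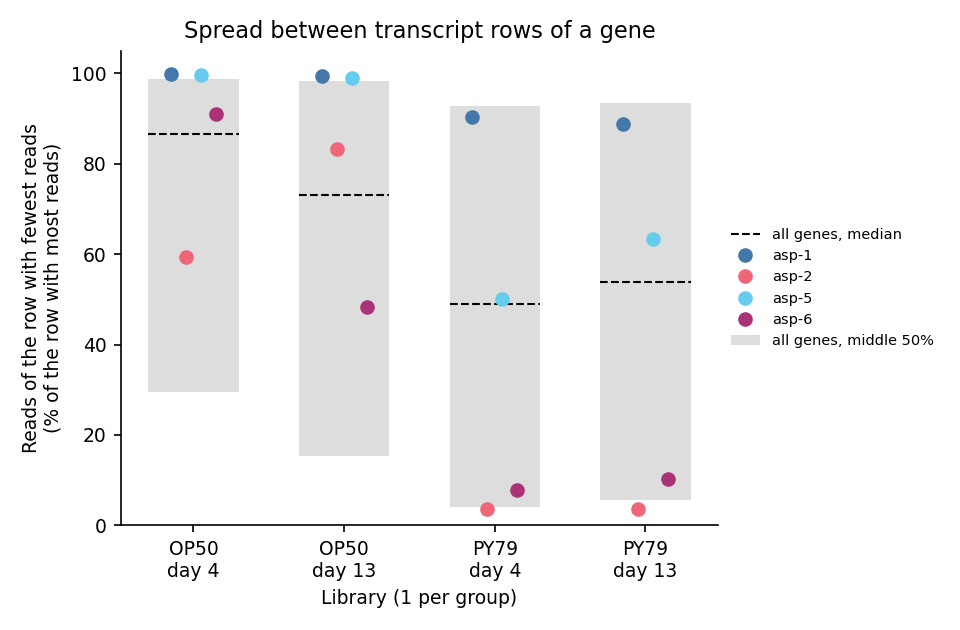
Reads of the transcript row with fewest reads as a percent of the row with most reads (y axis) in each library (x axis), for the 4 members with several rows (points), with the median (dashes) and middle 50% (grey) of all genes. On PY79 the asp-2 and asp-6 points lie between 3.67% and 10.2%, whereas asp-1 stays near 90%.

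On OP50 at day 4, asp-3 was the most abundant member. It had 19396 reads, or 734 CPM (724 to 745), and stood at rank 180 of 9032 genes. asp-1 followed with 9750 reads, or 369 CPM (362 to 376), at rank 264. asp-5 with 66.05 CPM (63.0 to 69.2) and asp-6 with 63.6 CPM (60.6 to 66.7) had overlapping intervals. asp-4 stood at 9.92 CPM (8.75 to 11.2) from 262 reads, and asp-2 at 1.21 CPM (0.828 to 1.71) from 32 reads. Reads from 3' ends should depend little on transcript length, and the order was the same per kilobase of coding length, which is 1167 to 1332 nucleotides in these genes: 615 CPM per kilobase for asp-3, 311 for asp-1, 56.02 for asp-5, 54.5 for asp-6, 7.45 for asp-4 and 0.941 for asp-2.

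The order changed from library to library. On OP50 at day 13 asp-1 stood first with 152 CPM per kilobase and asp-3 second with 117, followed by asp-6 (20.1), asp-5 (12.6), asp-4 (1.17) and asp-2 (0.220). On PY79 at day 4 the order was asp-1 (241.5 CPM per kilobase), asp-3 (208), asp-6 (133), asp-2 (27.5), asp-5 (11.6) and asp-4 (7.09), with the intervals of the last pair overlapping. On PY79 at day 13 asp-6 stood first with 114 CPM per kilobase, ahead of asp-1 (52.96) and asp-3 (18.5). asp-5 (4.35), asp-2 (3.59) and asp-4 (2.05) came last in that library, and their counting intervals overlapped. With the rows with fewest reads asp-6 was below asp-1 and asp-3 in every library.

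**Figure D2:**
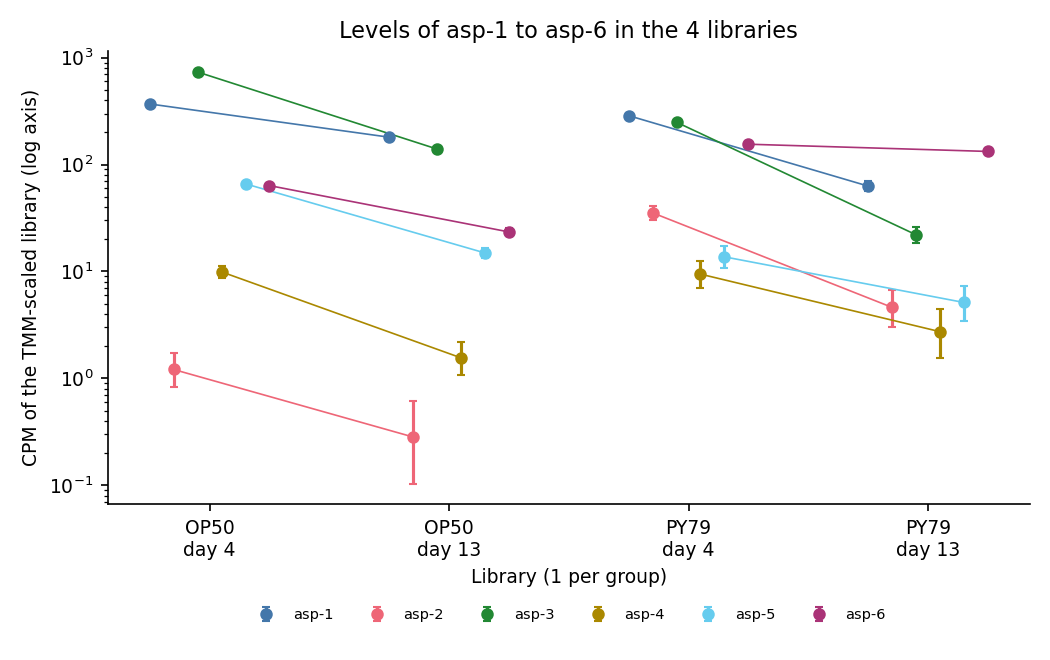
Level of each member in CPM of the TMM-scaled library (log axis) in each of the 4 libraries, 1 per group. Points are single libraries, bars are exact 95% counting intervals, and lines join the days of 1 diet. asp-3 goes from 734 to 140 CPM on OP50 and from 249 to 22.1 on PY79, while asp-6 stays between 133 and 155 on PY79.

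The first comparison asked what changed between day 4 and day 13 on each food. On OP50 all 6 members were lower, against a background of 18.9% of all genes counted lower and 14.6% higher. This count was 5 with DESeq2 size factors, where asp-1 was under 2-fold. It was 4 with OP50 thinned to the PY79 totals, where asp-1 and asp-2 were not counted. With the rows with fewest reads and TMM factors recomputed it was 4 as well, without the same genes. That setting differs in library scaling as well as in row. On OP50 its asp-1 row held 99.9% and 99.5% of the reads of the chosen row at day 4 and day 13. On PY79 5 of 6 were lower and none was higher, against 7.97% and 6.48% of all genes. The median log2 ratio of the members was -2.12 on OP50 and -1.99 on PY79, and that of all genes was 0.03 and -0.12. In edgeR's additive model asp-2, asp-3, asp-4 and asp-5 fell with age, 4 of 6 where 4.05% of all genes fell and 3.52% rose. With DESeq2 size factors in edgeR asp-2, asp-3 and asp-4 passed, and in DESeq2 itself asp-2, asp-3 and asp-5. With total reads 0 members passed edgeR's adjusted test and 5 had an unadjusted p under 0.05, where 1 of all 9032 genes passed against 684 with TMM. The fitted changes stayed close there, at log2 values of -2.98 for asp-3, -2.56 for asp-2 and -2.32 for asp-4.

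asp-3 had the highest point value with age on PY79, with an interval that overlaps that of asp-2. Its reads went from 1344 to 129, a level 11.3-fold lower (9.415 to 13.6), where 0.775% of all genes had a lower ratio. On OP50 it went from 19396 to 2962 reads and was 5.26-fold lower (5.06 to 5.465). The fitted log2 change was -2.94, with an adjusted p of 3.14e-05 in edgeR, and it was lower in both pairs of libraries. It was the only member that fell under each alternative run except total-read scaling.

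asp-4, a lysosomal protease of the cathepsin D type, was rare. The 262 reads of young and 33 reads of old worms on OP50 gave a 6.37-fold lower level (4.43 to 9.45), the highest point value on that food, with an interval that overlaps those of asp-2, asp-3 and asp-5. On PY79 it had 51 and 16 reads and was 3.45-fold lower (1.94 to 6.49). Its fitted log2 change was -2.26 with an adjusted p of 0.0057 in edgeR.

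asp-1, the intestinal protease, had 9750 and 3823 reads on OP50 and was 2.05-fold lower (1.97 to 2.13). On PY79 it had 1549 and 368 reads and was 4.56-fold lower (4.07 to 5.12). The OP50 value lay just past the limit of 2 and was 1.94-fold with DESeq2 size factors. In edgeR its log2 change of -1.61 had an adjusted p of 0.0523, which does not pass, and TMM factors taken without ribosomal protein genes gave 0.044.

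asp-5 went from 1745 to 316 reads on OP50, 4.43-fold lower (3.93 to 5.01), and from 74 to 30 reads on PY79, 2.67-fold lower (1.73 to 4.23). It fell in the additive model with a log2 change of -1.81 and an adjusted p of 0.042 in edgeR. In the second row the PY79 reads were 37 and 19. With TMM factors recomputed from the rows with fewest reads, the gene was then 1.97-fold lower (1.10 to 3.62). That setting gave an adjusted p of 0.282 in edgeR.

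asp-2 fell too, with a log2 change of -2.59 and an adjusted p of 0.00292 in edgeR. On OP50, with 32 and 6 reads, it was 4.28-fold lower (1.77 to 12.5). With the 191 and 27 reads on PY79 the difference was 7.66-fold (5.105 to 11.93). In the second row, from 19 and 5 reads on OP50 and 7 and 1 on PY79, it was 2.44-fold (0.880 to 8.35) and 7.08-fold (0.909 to 319) lower and did not pass, with an adjusted p of 0.587 in edgeR.

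asp-6 was the member that departed from the rest. Its level on OP50 was 2.71-fold lower (2.45 to 3.005) at day 13, but on PY79 the difference was 1.17-fold (1.06 to 1.29), where 44.0% of genes had a lower ratio. With total reads the PY79 value was 1.004-fold higher (0.909 to 1.11), and in the second row, with 66 and 79 reads, it was 1.18-fold higher (0.843 to 1.67). asp-6 did not pass the age test, with a log2 change of -0.83 and an adjusted p of 0.585 in edgeR. Both rows thus left asp-6 near its day 4 level on PY79 and lower on OP50, where the second row was 4.08-fold lower (3.56 to 4.70).

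**Figure D3:**
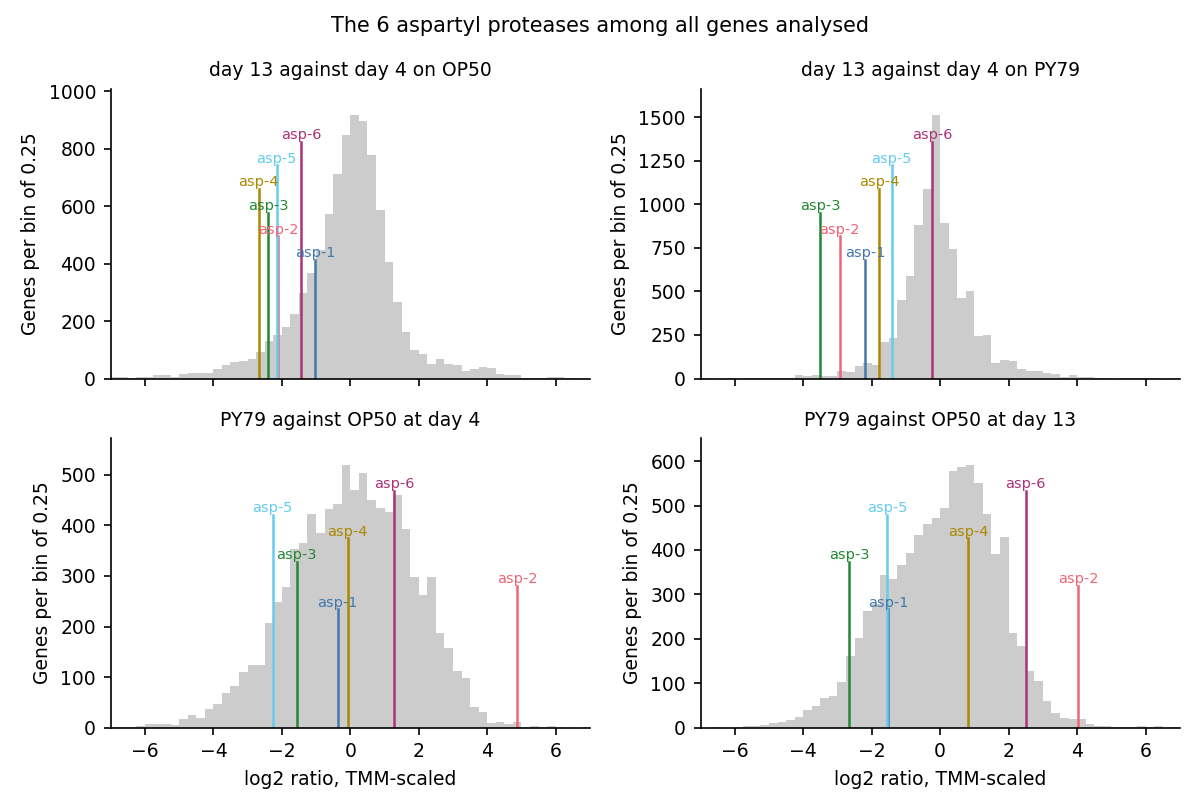
Distribution of the log2 ratio over the 9032 genes (grey, genes per bin of 0.25) in the 4 comparisons of TMM-scaled libraries, with the members as coloured lines whose height carries no value. In the age comparisons the members lie left of the bulk, at -2.39 on OP50 and -3.50 on PY79 for asp-3, except asp-6 on PY79 at -0.22, and in the diet comparisons they lie on either side.

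In these bulk samples fewer cells of a type and less RNA per cell cannot be told apart. Of 8 intestine markers 0 rose and 0 fell with age in edgeR, 2 had an unadjusted p under 0.05, and 0 passed in DESeq2. The metallothionein mtl-2 held nearly all of their reads, at 3348, 5362, 1451 and 978 CPM. The other 7 markers, among them ges-1, ifb-2, vha-6, act-5 and elt-2, summed to 14 and 6.65 CPM on OP50 and to 13.2 and 6.33 CPM on PY79 at day 4 and day 13, from at most 370 reads. pept-1 was at 0 reads on PY79 at day 13. Of the other tissues, 2 of 5 body wall muscle markers, 2 of 3 epidermal markers and 1 of 7 germline markers fell with age and 0 rose, where 4.05% of all genes fell. With total reads 0 of them passed. The muscle markers summed to 385 and 49.4 CPM on OP50 and to 124 and 50.8 CPM on PY79, and unc-27 alone held 343, 43.4, 97.6 and 40.7 of these. Of 4 pharynx markers 0 passed, but 3 were higher and 0 lower at day 13 on OP50, from few reads, and 0 were higher on PY79. Of 5 neuron markers 0 passed. The part of these marker differences in the asp levels was not tested. elt-2 (C33D3.1), the GATA factor of the intestine at the centre of the study, had 185, 35, 10 and 7 reads. At day 13 it was 4.24-fold lower (2.94 to 6.28) on OP50. On PY79 it was 1.55-fold lower (0.532 to 4.79), with an interval that spans 1. It did not pass the age test of the additive model (adjusted p of 0.144 in edgeR).

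The second comparison set PY79 against OP50 at each day. At day 4, 2 members were higher, 2 were lower and 2 were neither, against 25.4% of all genes higher and 24.3% lower. At day 13, 2 were higher and 3 lower, against 22.6% and 22.8% of all genes. The median log2 ratio of the members was -0.22 at day 4 and -0.35 at day 13, and that of all genes was 0.09 and 0.20. In edgeR asp-3 and asp-5 fell with the PY79 diet, where 17% of all genes fell, and asp-2 and asp-6 rose, where 14.8% rose. Scaling to 6 reference genes moved the log2 ratio of every gene up by 2.10 at day 4 and 2.71 at day 13, and with it 0 members were lower and 4 and 5 were higher on PY79. Of the reads of those reference genes tbb-2 held 77.0% and 76.4% on OP50 and 56.2% and 55.3% on PY79. Total reads moved every gene up by 0.28 and 0.82, so directions between foods are relative to the bulk of genes.

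asp-3 was 2.95-fold lower (2.79 to 3.12) on PY79 at day 4 and 6.33-fold lower (5.31 to 7.61) at day 13. Its fitted log2 change was -2.11 with an adjusted p of 0.00183 in edgeR. With total reads the differences were 2.44-fold (2.31 to 2.58) and 3.59-fold (3.01 to 4.32), and the adjusted p was 0.0433. With the reference genes it was level or higher, at log2 ratios of 0.54 and 0.04.

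asp-5 was 4.82-fold lower (3.82 to 6.17) at day 4 and 2.91-fold lower (1.995 to 4.38) at day 13, with a log2 change of -1.91 and an adjusted p of 0.00885 in edgeR. With total reads the day 13 value was 1.65-fold lower (1.13 to 2.49) and the gene no longer passed, with an adjusted p of 0.13. In the row with fewest reads it fell, at an adjusted p of 0.00529.

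asp-1 was 1.29-fold lower (1.22 to 1.36) at day 4 and 2.87-fold lower (2.57 to 3.20) at day 13, but 1.63-fold lower (1.46 to 1.82) at day 13 with total reads. It did not pass the diet test, with an adjusted p of 0.185 in edgeR, but passed as lower among genes with 10 reads in every library (0.0333) and as higher with reference genes (0.0172). asp-4 was 1.05-fold lower (0.775 to 1.45) at day 4 and 1.76-fold higher (0.904 to 3.29) at day 13, and both intervals span 1. At day 13 it was counted as higher with total reads, at 3.10-fold (1.59 to 5.79), with reference genes, at 11.5-fold (5.89 to 21.4), and with the rows with fewest reads, at 2.07-fold (1.06 to 3.87). As asp-4 has a single row, that last value differs through the library sizes alone. The adjusted p for diet of asp-4 was 0.716 in edgeR.

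asp-6 was 2.44-fold higher (2.24 to 2.65) on PY79 at day 4 and 5.66-fold higher (5.05 to 6.35) at day 13, with a log2 change of 1.89 and an adjusted p of 0.00518 in edgeR. In its other row it was 3.44-fold lower (2.69 to 4.47) at day 4 and 1.41-fold higher (1.076 to 1.82) at day 13, and did not pass, with an adjusted p of 0.513 in edgeR. With the rows summed the adjusted p was 0.0743. The diet difference of asp-6 at day 4 is thus a matter of which row is read.

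asp-2 showed the widest gap between the foods. It had 32 reads on OP50 and 191 on PY79 at day 4, 29.2-fold higher (20.01 to 43.9), above 99.8% of all genes. At day 13 it had 6 and 27 reads and was 16.3-fold higher (6.599 to 48.3). The log2 change was 4.51 with an adjusted p of 4.77e-08 in edgeR. In the other row it had 19 and 7 reads at day 4, which gave 2.48-fold higher (0.881 to 6.16), and 5 and 1 reads at day 13, which gave 1.17-fold lower (0.131 to 55.4). Neither of these intervals leaves out 1.

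**Figure D4:**
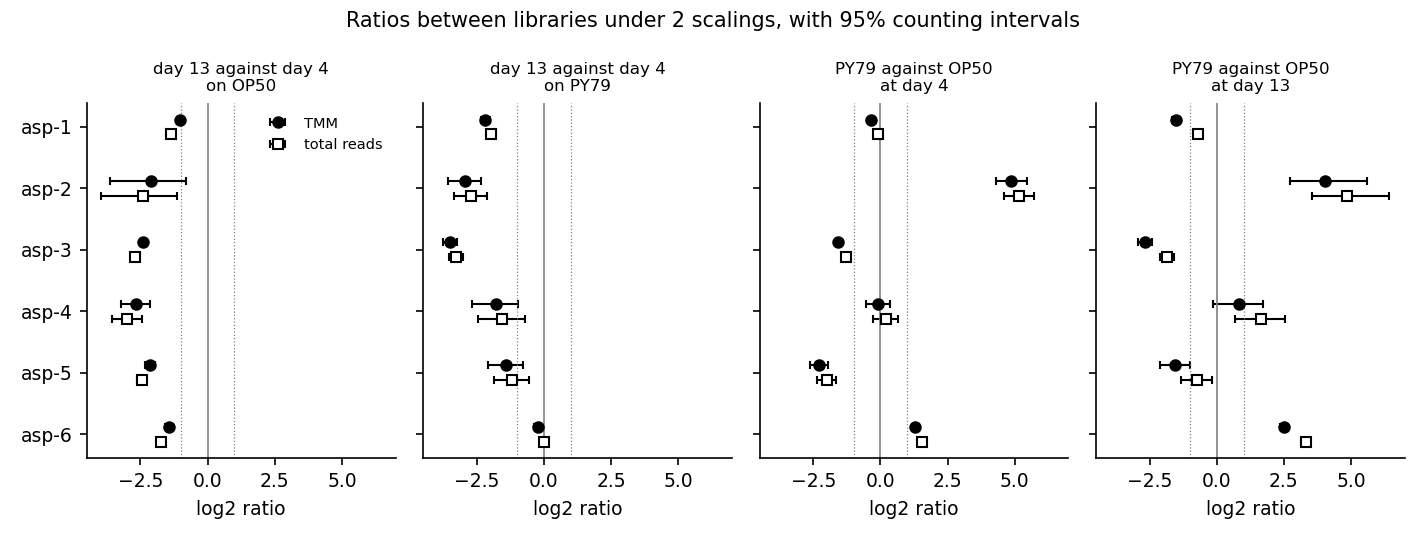
log2 ratio (x axis) of each member in the 4 comparisons with TMM scaling (filled) and total-read scaling (open); bars are exact 95% counting intervals, and dotted lines mark a 2-fold difference. All age ratios lie below 0 except asp-6 on PY79 with total reads, and asp-3 is more than 2-fold lower in all 4 comparisons under both scalings (not under reference gene scaling, where it is at 0.54 and 0.04 between foods).

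The age ratios of the 2 foods were then set against each other, as the log2 ratio on PY79 minus that on OP50 with its counting interval. asp-1 had a value of -1.16 (-1.33 to -0.98) and asp-3 of -1.10 (-1.37 to -0.84), so that both were further down with age on PY79. asp-5 had 0.73 (0.09 to 1.37) and asp-6 had 1.22 (1.01 to 1.42), and these were further down on OP50. For asp-2 the value was -0.84 (-2.23 to 0.55) and for asp-4 it was 0.88 (-0.08 to 1.85), with intervals that span 0. With total reads asp-1 stood at -0.61, asp-3 at -0.56, asp-5 at 1.27 and asp-6 at 1.76, and their intervals left out 0 as well. asp-4 then stood at 1.43 (0.46 to 2.39), which leaves out 0, as did its values of 1.49 with reference genes and 0.99 with 10 reads in every library. With OP50 thinned asp-5 stood at 0.65 (-0.09 to 1.40). In the row with fewest reads asp-6 stood at 2.27 (1.76 to 2.79). With 1 library per group these values describe 4 libraries and the difference between diets was not tested.

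The share of each member in the reads of the 6 genes does not depend on how libraries are scaled. asp-3 held 59.02% (58.5 to 59.6, exact binomial interval) of them on OP50 at day 4, 38.8% (37.7 to 39.9) on OP50 at day 13, 33.2% (31.8 to 34.7) on PY79 at day 4 and 9.58% (8.06 to 11.3) on PY79 at day 13. Its share was thus lower in each of the other libraries than in young worms on OP50. asp-1 held 29.7% (29.2 to 30.2) and 50.1% (48.9 to 51.2) on OP50, and 38.3% (36.8 to 39.8) and 27.3% (24.97 to 29.8) on PY79. asp-6 held 5.11% (4.88 to 5.36) and 6.51% (5.97 to 7.08) on OP50, but 20.7% (19.5 to 21.97) and 57.7% (54.96 to 60.3) on PY79. With the rows with fewest reads asp-1 held 48.2% and 57.3% on PY79, so that its share was higher at day 13 in place of lower, and asp-3 held 46.25% and 22.6%. In those rows the asp-6 share on PY79 was 2.27% (1.76 to 2.88) at day 4 and 13.8% (11.11 to 16.9) at day 13. On PY79 asp-6 therefore gained share with age in both rows, and the size of that share depended on the row.

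Ratios between members within a library are free of scaling too. There were 1.99 asp-3 reads (1.94 to 2.04) for each asp-1 read on OP50 at day 4 and 0.775 (0.738 to 0.813) at day 13, against 0.868 (0.806 to 0.934) and 0.351 (0.285 to 0.4295) on PY79. In the rows with fewest reads these ratios were 1.99, 0.779, 0.959 and 0.395. asp-5 and asp-6 lie on either side of another family member, asp-12, on chromosome V, and asp-6 is on the strand opposite to asp-5. There were 0.963 asp-6 reads (0.900 to 1.03) for each asp-5 read on OP50 at day 4, 1.57 (1.36 to 1.82) on OP50 at day 13, 11.3 (8.91 to 14.6) on PY79 at day 4 and 25.9 (17.97 to 38.6) on PY79 at day 13. In the rows with fewest reads they were 0.880, 0.767, 1.78 and 4.16. The asp-6 to asp-5 ratio was higher on PY79 than on OP50 at both days when both genes were read in the same kind of row. Mixed choices of rows were not computed. At day 4 the second row of asp-6 held 1529 reads on OP50 and 66 on PY79, and the chosen row of asp-5 held 1745 and 74.

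**Figure D5:**
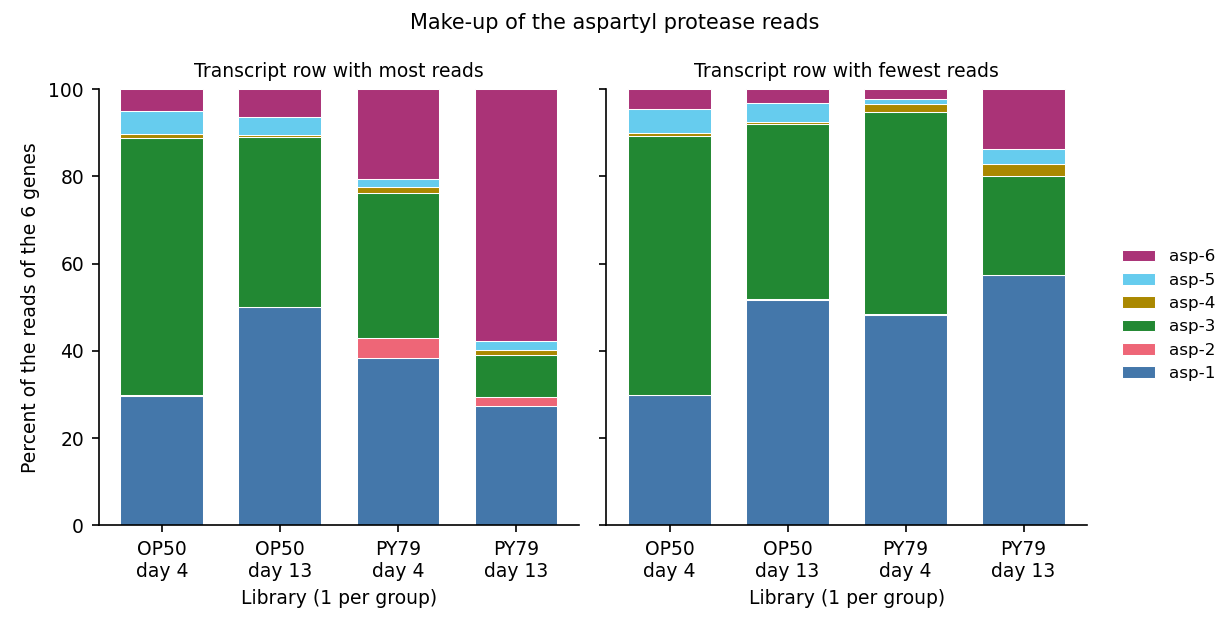
Share of each member in the summed reads of the 6 genes (percent, y axis from 0) in each library, for the transcript row with most reads (left) and with fewest reads (right). asp-3 shrinks from 59.02% to 9.58% on the left, and asp-6 reaches 57.7% on the left against 13.8% on the right in the PY79 day 13 library.

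The members did not share a single profile. Likeness was measured as the distance between log2 CPM profiles over the 4 libraries, each centred on its mean, so that 0 is the same profile. Among the members the closest pairs were asp-1 and asp-5 at 1.34, asp-3 and asp-5 at 1.51, asp-1 and asp-3 at 1.77 and asp-1 and asp-4 at 1.79. asp-2 lay farthest, between 3.11 from asp-6 and 6.47 from asp-3. Among 2354 genes with a mean of 100 reads or more and no library under 10, no member was among the 3 genes nearest to another member. asp-2 and asp-4 were not among the genes searched and so could not be named. Nearest to asp-1 were ZK354.2 at 0.222, the adult cuticle collagen col-19 at 0.472 and the saposin-like spp-23 at 0.534. Nearest to asp-3 were ech-7, named for enoyl-CoA hydratase, at 0.596, K02F3.9 at 0.715 and the yolk protein gene vit-2 at 0.731. vit-2 stood at 7655, 1416, 3119 and 424 CPM, in the order of libraries given above. Nearest to asp-4 were K06A4.7 at 0.276, scl-20 at 0.51 and grsp-4 at 0.544, and nearest to asp-5 were M02H5.8 at 0.339, arle-14 at 0.37 and K03H6.5 at 0.439. asp-6 lay nearest to Y47G6A.29 at 0.182, C18D11.3 at 0.207 and the ubiquitin-conjugating enzyme gene ubc-12 at 0.256, and nearest to asp-2 were the lysozyme gene lys-4 at 1.65, F23D12.11 at 1.67 and the lysozyme gene lys-1 at 1.86. asp-2 itself, with 6 reads on OP50 at day 13, was outside the genes searched, and so were other genes as scarce on OP50. asp-4 was outside because its mean was under 100 reads. These distances rest on 4 libraries that are not replicates and carry no test.

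The table also held 7 other genes named asp. Only asp-12, asp-13, asp-14 and asp-17 had at least 10 reads in any library, and asp-8, asp-15 and asp-18 did not. asp-14 (K10C2.3), with a single row, had 11, 2, 53 and 1 reads and reached 10 only at day 4. asp-12 (F21F8.4) had 7, 5, 35 and 14 reads and reached 10 only on PY79, and its second row had 6, 2, 4 and 3 reads. asp-13 (F28A12.4) had 23, 1, 8 and 3 reads and asp-17 (Y39B6A.24) had 14, 4, 7 and 3, so that both reached 10 only on OP50 at day 4. Because each passed the filter only through libraries where it was high, no test is given for these 4 genes.

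The cysteine cathepsins are another family of proteases of acid compartments. Whether they share a compartment with the asp proteases was not measured here. Of 10 measured, 3 fell with age (cpr-1, cpr-4 and cpr-6), 1 rose (cpr-2) and 6 did not pass. Over all genes 4.05% fell with age and 3.52% rose. With diet 2 of the 10 fell (cpl-1 and cpz-1) and 0 rose, where 17% of all genes fell and 14.8% rose. With total reads 0 of the 10 passed the age test, 6 had an unadjusted p under 0.05 for age, and 1 passed the diet test. In DESeq2 4 passed for age and 3 for diet. Their median log2 ratio with age was -0.81 on OP50 and -0.98 on PY79. cpr-1, a cathepsin B, had 747, 400, 2177 and 207 CPM and cpr-4 had 837, 284, 830 and 75.2 CPM. cpr-6 had 611, 62.3, 190 and 59.2 CPM. cpl-1, a cathepsin L, had 667, 405, 184 and 75.4 CPM and was lower on PY79 at both days, as asp-3 was. cpr-2 ran the other way with age, at 0.568, 1684, 10 and 148 CPM.

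Of 14 genes for lysosome membrane proteins and hydrolases 7 passed the filter. asah-1, an acid ceramidase, fell with age, 0 rose and 6 did not pass, while in DESeq2 0 of 7 passed. With diet ctns-1 and nuc-1 rose and scav-3 and hex-1 fell, where 14.8% of all genes rose and 17% fell. hex-1, a hexosaminidase, stood at 206, 290, 76.1 and 82.1 CPM, scav-3 at 108, 84.9, 9.45 and 9.75, asah-1 at 26.3, 14.5, 67.2 and 8.55, and lmp-1, a lysosome membrane glycoprotein, at 15.03, 21.2, 18.9 and 15.4. The median log2 ratio of these 7 genes with age was -0.08 on OP50 and -0.29 on PY79, nearer to that of all genes than the asp medians. By fold, 1 of the 7 was lower at day 13 on OP50 and 3 on PY79, and 0 were higher. Over all genes 18.9% and 7.97% were lower. Among 19 measured subunit genes of the vacuolar proton pump, which acidifies lysosomes, 0 rose and 0 fell with age in edgeR, 0 had an unadjusted p under 0.05 and 0 passed in DESeq2. Their median log2 ratio with age was -0.19 on OP50 and -0.70 on PY79. By fold, 1 of the 19 was higher and 0 lower at day 13 on OP50, and 4 were lower and 0 higher on PY79. On PY79 5 of them rose and 0 fell, against the same 14.8% and 17% of all genes. vha-13 stood at 37.1, 39.9, 22.8 and 16.6 CPM and vha-2 at 24.3, 20.6, 22.97 and 13.7.

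Calpains and calcium release act upstream of asp-3 and asp-4 in necrosis. Of 5 measured genes of that list 1, the ryanodine receptor unc-68, fell with age, at an adjusted p of 0.0334 in edgeR, and 0 rose, while in DESeq2 0 passed. The calpain clp-1 had 91, 118, 44 and 41 reads and passed neither test. Calreticulin (crt-1), at 1229, 1815, 333 and 467 CPM, and calnexin (cnx-1), at 126, 209, 33.2 and 41.9 CPM, fell with the PY79 diet, as asp-3 did, and did not pass the age test. Over all genes 17% fell with that diet.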

How the data were processed

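The authors sequenced 3'-end-enriched libraries of poly(A) RNA from whole worms, 1 per group, and deposited raw read counts per annotated transcript. The submitters' processing notes name Bowtie 0.12.7. The sources used here do not give the genome build, annotation release, counting tool or use of strand. The study scaled each gene to total mapped reads.

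Of 24775 transcript rows, 2 named no gene and held 0 reads. The row with most reads over the 4 libraries stood for each of 17096 genes, of which 16760 matched Ensembl release 115, the source of symbols, coding lengths and neighbours. A gene was tested if any library held 10 of its reads (9032 genes). Counts were scaled by TMM in edgeR 4.0.16 (R 4.3.3), with factors from 0.743 to 1.31. Folds had exact Clopper-Pearson 95% intervals on the split of the reads of both libraries (scipy 1.17.1). Intervals cover counting error only, since reads are not independent molecules. The additive quasi-likelihood model of diet and day had 1 residual degree of freedom, so its p-values rest on a spread shared across genes and on diet and day acting additively. It was tested on simulated data with less spread than fitted here, no diet effect and the same age effect on both foods. Those simulations cannot show how it behaves where age effects differ between foods. Alternatives were total reads, DESeq2 1.42.0, reference genes, TMM without ribosomal protein genes, other filters, summed rows, OP50 thinned to PY79 totals and, chosen after seeing the data, the row with fewest reads. Named genes were the 6 members, for each the 3 nearest profiles, other asp genes with at least 10 reads in a library, list genes with at least 1000 reads (at most 5 per list), and elt-2. unc-68, clp-1, cpz-1, ctns-1 and nuc-1 were named after their values were seen. The members and lists were chosen with earlier results of these data known.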

Additional observations from a re-analysis of the deposited data

Results flagged for a closer look

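asp-4 was on opposite sides of 0 between foods at the 2 days: its log2 ratio of PY79 to OP50 was -0.07 at day 4 and 0.81 at day 13, from 262 and 51 reads and from 33 and 16 reads. The difference between the days was not tested, and neither value was counted as higher or lower with TMM. At day 13 asp-4 was counted as higher with total reads (3.10-fold), reference genes (11.5-fold) and the rows with fewest reads (2.07-fold). The last of these differs through library sizes alone, because asp-4 has a single row.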

How the results depend on the processing

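Of 265 values for single members, 229 kept their direction and their side of the threshold under the alternatives, 17 were no longer past it, 6 came past it and 13 turned sign. All 6 were of asp-4: its diet ratio at day 13 with total reads (1.63), reference genes (3.52) and the rows with fewest reads (1.05), and its age ratio on PY79 minus that on OP50 with total reads (1.43), reference genes (1.49) and 10 reads in every library (0.99). Of 92 counts of members and tests, 74 stayed within 1.5 times. The causes of the changes were not tested beyond what each alternative does by construction. Members lower at day 13 on OP50 were 5 with DESeq2 size factors in place of 6. They were 4 with 10 reads in every library, with thinning, or with the rows with fewest reads and recomputed TMM factors. With the row with fewest reads in every gene and TMM factors recomputed from those rows, 3 members were lower at day 13 on PY79 in place of 5. There 0 were higher on PY79 at day 4 and 1 at day 13 in place of 2 each. In that setting 2 passed the age test and 2 the diet test in place of 4 each. It turned the log2 diet ratio of asp-6 at day 4 to -1.78 and of asp-2 at day 13 to -0.23, and the age ratio of asp-6 on PY79 to 0.24. The diet ratio of asp-4 at day 4 turned to 0.39 through library sizes alone, as asp-4 has a single row. Reference gene scaling left 0 members lower on PY79 at day 4 and 0 at day 13, made 4 and 5 higher, and left 1 past the age test. It turned the diet ratio to 1.73 and 1.19 in asp-1 and to 0.54 and 0.042 in asp-3 at day 4 and day 13, to 2.03 in asp-4 at day 4 and to 1.17 in asp-5 at day 13. Total reads left 1 member lower on PY79 at day 13 and 0 past the age test (5 unadjusted, and over all genes 1 adjusted and 1077 unadjusted in place of 684 adjusted), and turned asp-6 with age on PY79 to 0.005 and asp-4 with diet at day 4 to 0.21. A filter of 10 reads in every library drops asp-2, and left 0 higher on PY79 at day 4, 1 at day 13 and 2 past the age test. Summed rows gave 1 higher on PY79 at day 4 and asp-4 at 0.003, no filter gave 1 higher there, and thinned OP50 libraries left 2 past the age test. Over all genes 684 changed with age, against 300 in DESeq2, 142 with reference genes, 193 with 10 reads in every library and 404 after thinning, and 2872 changed with diet, against 1885 with total reads, 1780 in DESeq2 and 5383 with reference genes.

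No pairing of replicates was possible because each group held 1 library with no replicate number. The additive model compares ages within each food, and no library was left out in turn. PY79 libraries held 4838114 and 4469802 reads, which limits asp-4 and asp-5 there, with 16 and 51 reads in asp-4, while asp-2 is limited on OP50, with 32 and 6 reads.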
